A study of Homo sapiens with 42 samples.

Results

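ORM1, HP and HPX are the genes of orosomucoid, haptoglobin and hemopexin, and their mRNA was followed here over 16 h in Hep3B, an established human hepatoma cell line. Every probe assigned by the array annotation to ORM1, HP or HPX and to no other gene was taken, each on its own. This gave 3 of the 5631 genes that the array names singly and 8 of 13824 probes, namely ORM1 probes 2192, 7977 and 9589, HP probes 339 and 5401, and HPX probes 3142, 7370 and 7580. Cultures were grown in CM, a medium rich in pro-inflammatory cytokines per the labels, or in NCM, the control medium. Cells of both media were collected at T0 and after 15 min, 30 min, 1 h, 3 h, 6 h or 16 h, with 3 cultures of each medium at every time and 42 arrays in all. In each of 3 independent experiments a CM and an NCM culture of the same time came from 1 batch of cells, so that every time holds 3 pairs. The labels name neither the cytokines in CM nor their amounts, and 1 cell line stands for the hepatocyte. The question was how the abundance of the 3 mRNAs in CM differed from that in NCM at each time.

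All 3 products are glycoproteins that the liver secretes into plasma, and they belong to the acute phase proteins, whose plasma levels shift during inflammation. Orosomucoid, also called alpha-1-acid glycoprotein, is a lipocalin that binds basic drugs and other small lipophilic molecules. Haptoglobin captures hemoglobin released from red cells, and the complex is taken up through the receptor CD163. Hemopexin captures free heme and hands it to cells through LRP1. Interleukin-6 acts on such genes in hepatocytes through STAT3 and C/EBP factors, and interleukin-1 and glucocorticoids act on part of them. The human genome holds a near copy of orosomucoid, ORM2, which lies next to ORM1 on chromosome 9, and a near copy of haptoglobin, HPR, which lies next to HP on chromosome 16. HPX lies on chromosome 11 between APBB1 and TRIM3.

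The 250 bases upstream of the start site are shown for ORM1 and HPX. They are taken from RefSeq on GRCh38.p14 and read 5′ to 3′ on the strand of the gene, from chr9:114322848-114323097 (plus strand) and chr11:6440988-6441237 (minus strand). Of the 3 genes, 2 were matched to a promoter sequence, and HP was not. Capitals mark matches to a C/EBP motif (TTNNGNAAT) and to the type II interleukin-6 response element (CTGGGA), both searched on both strands.
ORM1 promoter: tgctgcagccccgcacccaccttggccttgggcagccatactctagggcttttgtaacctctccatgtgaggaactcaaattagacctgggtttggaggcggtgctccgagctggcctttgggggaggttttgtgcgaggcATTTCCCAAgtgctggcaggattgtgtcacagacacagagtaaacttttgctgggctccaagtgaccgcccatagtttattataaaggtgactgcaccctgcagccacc
HPX promoter: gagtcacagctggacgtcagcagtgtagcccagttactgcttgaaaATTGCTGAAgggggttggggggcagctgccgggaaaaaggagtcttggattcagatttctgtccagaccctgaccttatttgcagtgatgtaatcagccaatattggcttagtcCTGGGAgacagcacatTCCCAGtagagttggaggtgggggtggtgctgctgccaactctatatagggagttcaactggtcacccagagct
In ORM1 the C/EBP match, ATTTCCCAA on the strand printed, begins 109 bases before the start, and a match to a loose NF-kappaB motif (GGG, 5 bases of any kind, CC) begins 112 bases before it and overlaps the first. In HPX a C/EBP match, ATTGCTGAA, begins 204 bases before the start, and CTGGGA and its reverse complement TCCCAG begin at 90 and 74 bases. Among 35116 promoters of this length, 9.85% hold the C/EBP motif, 28.7% hold CTGGGA and 54.4% hold the NF-kappaB motif. The STAT palindrome TTCNNNGAA, present in 6.57% of them, and the glucocorticoid receptor hexamer TGTTCT, present in 12.4%, have no match in either window. These matches are descriptions of letters and no binding was measured.

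Deposited values were linear intensities with a mean between 0.999 and 1.00 and a median between 0.354 and 0.807 on each array. They were quantile normalized and put on the log2 scale before any comparison, and unless a value is called deposited, levels below are log2 intensities of that scale. A level is comparable between arrays for 1 probe. Levels of different probes are set against each other only for brightness among probes and in the sums of cell markers. A change is CM minus NCM within pairs, with a standard error (SE) and 95% interval from limma. The adjusted p covers all 13824 probes and 0.05 is the threshold. The spread behind SE and p was moderated by limma and shared over the pairs of all times. At each of the 6 times before 16 h limma called 0% of all probes, and at 16 h it called 0.00723%, which is 1 probe, of the complement gene CFB. No member passed the adjusted threshold at any single time. With 3 pairs per time, the number of arrays sets the precision. In bulk RNA, more expressing cells and more mRNA per cell cannot be told apart.

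At 16 h ORM1 was higher in CM than in NCM on all of its 3 probes, in each of the 3 experiments and with no overlap between the media. The deposited intensities of probe 2192 were 2.50, 1.68 and 3.16 in the 3 CM cultures, against 0.795, 0.972 and 1.26 in the 3 NCM cultures. After normalization its log2 levels were 1.39, 0.71 and 1.50 in CM, against -0.17, -0.28 and 0.36 in NCM. The lowest CM culture, that of experiment 2, thus lay above the highest NCM culture, that of experiment 3. The mean log2 level was 1.20 ± 0.43 in CM and -0.03 ± 0.34 in NCM (SD, n = 3 each). The change was 1.23, or 2.34-fold (SE 0.23, interval 0.75 to 1.71), with an adjusted p of 0.103.

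Probe 7977 had log2 levels of 0.92, 0.60 and 0.94 in CM, against -0.21, -0.79 and -0.01 in NCM. Its change was 1.16 (SE 0.22, interval 0.70 to 1.62, adjusted p = 0.103). Probe 9589 had 0.78, 0.65 and 0.77 in CM, against -0.94, -0.91 and -0.10 in NCM. The CM cultures of this probe lay within a narrow band, with an SD of 0.07 against 0.48 in NCM. Its change of 1.38 was the largest of the 8 member probes, and its SE of 0.34 the largest of the 3 ORM1 probes (interval 0.67 to 2.09, adjusted p = 0.519). For scale, 2.48% of all probes had CM above NCM with no overlap at 16 h, 13.3% were higher in 3 of 3 pairs, and 0.145% had a change of at least 1. At an unadjusted p under 0.05, 2.53% of all probes were higher and 2.23% lower, and the members there were the 3 ORM1 probes and HP probe 339 above and HPX probe 3142 below. The probes of a gene report on the same RNA and are not replicates.

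When the probes of each gene were averaged and the fit was repeated over 12119 rows, ORM1 rose in CM at 16 h by 1.26 (SE 0.18, interval 0.87 to 1.64, adjusted p = 0.0159) and was the 1 row called (0.00825%). That call was absent without the pairs as a block (adjusted p = 0.366), with the deposited scaling (0.0899), with median centring (0.538) and without experiment 1, 2 or 3 (0.796, 0.897 and 0.558). Over the settings tried, its adjusted p ran from 0.00568 to 0.897 and its change from 1.15 to 1.39. Of 314 genes with 3 or more probes, ORM1 was the 1 gene whose probes were all higher in CM without overlap at 16 h. Its median probe change of 1.23 was followed by 0.75 for IFITM3, 0.62 for ITIH4 and 0.62 for FGG, given as a description because ORM1 was chosen with these data known.

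**Figure D1:**
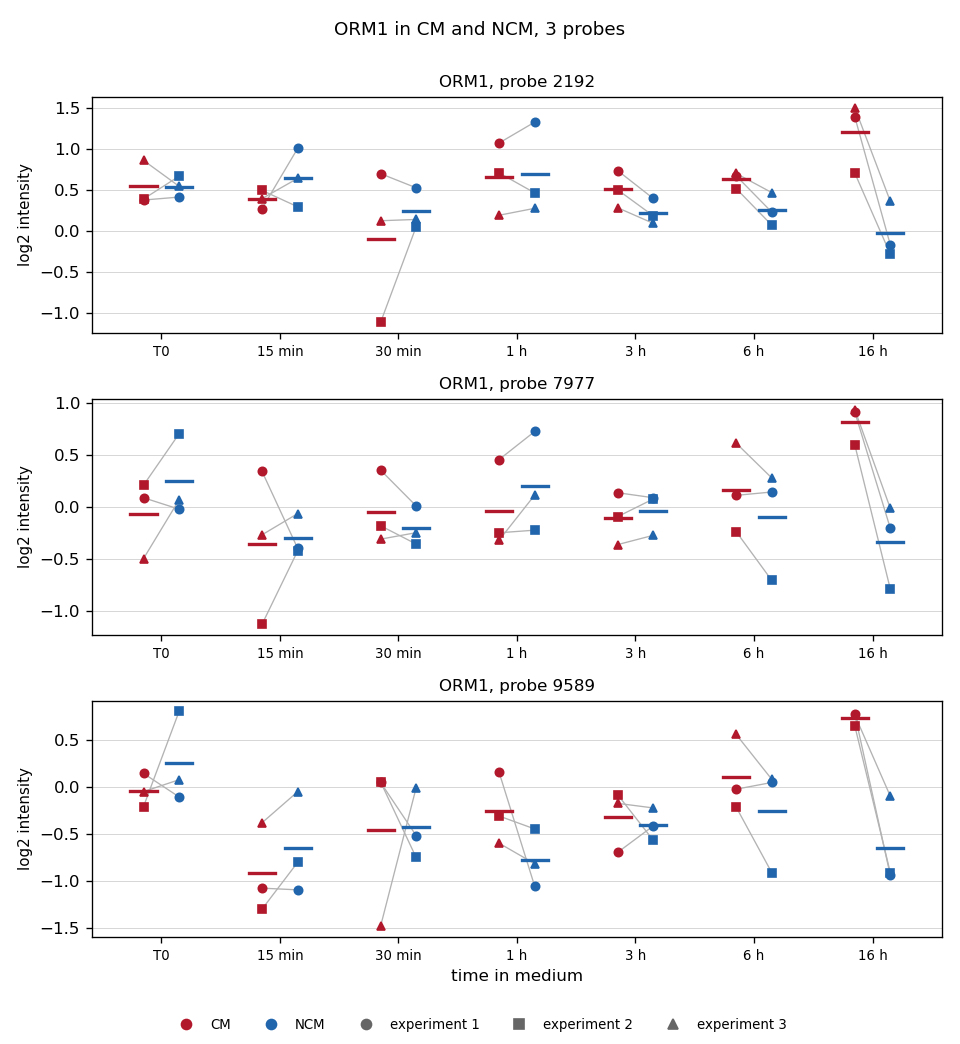
Log2 intensity of the 3 ORM1 probes on the vertical axis of each panel, by time in medium on the horizontal axis, with CM in red to the left of NCM in blue. Points are single cultures, marker shape gives the experiment, grey lines join the cultures of a pair and bars are means of 3 cultures. At 16 h the CM cultures of probe 2192 lie between 0.71 and 1.50 and the NCM cultures between -0.28 and 0.36, while the media are mixed at T0 to 3 h.

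Before 16 h the ORM1 probes showed no difference of that size. Over the 6 earlier times their 18 changes lay between -0.34 and 0.52, with 0 at an unadjusted p under 0.05 by limma, against 3.92% of all probe tests at those times. At T0, probe 2192 had 0.38, 0.39 and 0.86 in CM, against 0.41, 0.67 and 0.54 in NCM, a change of 0.00 (interval -0.48 to 0.48). The other probes had T0 changes of -0.32 and -0.30, lower in 2 of 3 pairs each. At 30 min the CM culture of experiment 2 stood apart on probe 2192, at -1.11 against 0.70 and 0.12 in the other CM cultures and 0.52, 0.05 and 0.14 in NCM. At 1 h probe 9589 had a change of 0.52, higher in 3 of 3 pairs, while probe 7977 had -0.24, lower in 3 of 3 pairs, so the ORM1 probes did not share a direction. At that time 15.6% of all probes were higher and 12.8% lower in 3 of 3 pairs.

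The 6 h values were small and of 1 direction. Probe 2192 had 0.67, 0.52 and 0.70 in CM, against 0.23, 0.07 and 0.47 in NCM at 6 h, higher in 3 of 3 pairs and without overlap. That change was 0.37 (SE 0.23, interval -0.10 to 0.85), and 2.08% of all probes were higher without overlap at this time. Probes 7977 and 9589 had 0.26 and 0.37 at 6 h, each higher in 2 of 3 pairs. Averaged over 3 h, 6 h and 16 h, probe 2192 had a change of 0.63 (SE 0.13, adjusted p = 0.152) and was higher in 9 of 9 pairs, which held for 0.441% of all probes. In that mean limma called 0.0434% of the probes and none of the members, and the other ORM1 probes had 0.45, higher in 6 of 9 pairs, and 0.61, higher in 7 of 9.

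The difference between the media at 16 h was also set against that at other times. Relative to T0 it was larger by 1.23 (SE 0.32), 1.47 (SE 0.31) and 1.68 (SE 0.48) on probes 2192, 7977 and 9589. Relative to 6 h it was larger by 0.86 (SE 0.32), 0.90 (SE 0.31) and 1.01 (SE 0.48). The intervals of these 6 differences all lay above 0, limma called 0% of all probes in either comparison, and no adjusted p was under 0.986.

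Set against the T0 means, the gap of ORM1 at 16 h lay partly in CM and partly in NCM. In CM, the 16 h mean minus the T0 mean was 0.66 (SE 0.36), 0.89 (SE 0.35) and 0.77 (SE 0.37) on probes 2192, 7977 and 9589. In NCM the same difference was -0.57 (SE 0.28), -0.59 (SE 0.31) and -0.91 (SE 0.35). None of these passed the threshold, with an adjusted p of 0.998 or more throughout. The NCM part depended on the time used as reference. At 15 min the NCM means of the 3 probes were 0.65, -0.30 and -0.65, against -0.03, -0.34 and -0.65 at 16 h. Among the 14 group means, that of CM at 16 h was the highest on all 3 probes. On probe 2192 it was followed by NCM at 1 h (0.69 ± 0.56), CM at 1 h (0.66 ± 0.44) and NCM at 15 min (0.65 ± 0.35), which do not differ beyond their SD. The lowest groups on probe 2192 were NCM at 16 h (-0.03 ± 0.34) and CM at 30 min (-0.10 ± 0.92), which also lie within their SD of each other. On probes 7977 and 9589 the lowest group was CM at 15 min (-0.35 and -0.92). Of the 36 arrays before 16 h, 6 were above the lowest CM array of 16 h on probe 2192, 3 on probe 7977 and 1 on probe 9589.

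The neighbouring copy ORM2 is named here for probes 1820 and 7313, which the annotation assigns to AKNA and ORM2 together. They were read beside the members after the values had been seen. At 16 h, probe 1820 had 1.52, 1.08 and 0.99 in CM, against -0.19, -0.52 and 0.38 in NCM, a change of 1.31 (SE 0.25, adjusted p = 0.103). Probe 7313 had 1.16, 1.47 and 1.43 in CM, against -0.49, 0.38 and 0.45 in NCM, a change of 1.24 (SE 0.24, adjusted p = 0.103). Both were higher in 3 of 3 pairs without overlap. From T0 to 3 h their changes lay between -0.49 and 0.11. Over the 21 pairs, the CM minus NCM differences of ORM1 probe 2192 followed those of probe 1820 at a Pearson r of 0.92, against 0.49 and 0.41 with the other ORM1 probes. The probes share the arrays and pairs, and whether a probe binds the mRNA of ORM1, ORM2, AKNA or several of them was not tested.

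HP, the hemoglobin scavenger, was higher in CM at 6 h and 16 h on both probes, by 0.47 to 0.54, and no value passed the threshold. Without experiment 2 the change of probe 339 was 0.26 at 6 h and 0.35 at 16 h, and probe 5401 had 0.16 at 16 h without experiment 1, 0.79 without experiment 3 and 0.11 with the lower bound at the 10th percentile. At 16 h, probe 339 had log2 levels of -0.73, 0.87 and 0.82 in CM, against -0.98, -0.05 and 0.36 in NCM. Each CM culture lay above its own partner, but the media overlapped, because both cultures of experiment 1 were low. The change was 0.54, or 1.46-fold (SE 0.24, interval 0.04 to 1.04, adjusted p = 0.942), and the mean was 0.32 ± 0.91 in CM and -0.22 ± 0.69 in NCM (SD, n = 3 each). Deposited intensities were 0.594, 1.83 and 1.91 in CM, against 0.453, 1.05 and 1.26 in NCM.

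At 6 h, HP probe 339 had -0.76, 0.22 and -0.78 in CM, against -0.92, -0.70 and -1.15 in NCM. The change was 0.48 (SE 0.24, interval -0.02 to 0.98), higher in 3 of 3 pairs, as were 13.3% of all probes at 6 h. At T0 the same probe had -0.51, -1.70 and -1.38 in CM, against -0.12, -1.32 and -1.28 in NCM, lower in 3 of 3 pairs, as were 9.19% of all probes. That T0 change was -0.29 (SE 0.24, interval -0.79 to 0.21). From 15 min to 3 h its changes lay between -0.32 and -0.02.

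The mean level of HP probe 339 over all times was -0.80 in experiment 1, 0.03 in experiment 2 and -0.18 in experiment 3. This order did not hold at every time. At T0 experiment 1 was the highest, with -0.51 in CM and -0.12 in NCM. Experiment 2 had -1.70 and -1.32 there, and experiment 3 had -1.38 and -1.28. Whether an experiment number links cultures across times is not given by the labels, so these means may pool unrelated cultures. Group means of this probe ran between -1.20 ± 0.61 in CM at T0 and 0.32 ± 0.91 in CM at 16 h. The 16 h level exceeded that at T0 by 1.52 (SE 0.60) in CM and 0.68 (SE 0.50) in NCM, neither past the threshold.

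HP probe 5401 came close to the lower bound of the log2 scale, and its level was at that bound on 1 of 42 arrays. At 16 h it had -2.05, -1.74 and -2.23 in CM, against -3.14, -2.23 and -2.05 in NCM, a change of 0.47 (SE 0.37, interval -0.30 to 1.24) with 2 of 3 pairs higher. At 6 h it had -2.90, -1.55 and -1.35 in CM, against -3.05, -2.25 and -2.13 in NCM, a change of 0.54 (SE 0.37) with 3 of 3 pairs higher. The late mean of 3 h, 6 h and 16 h was 0.50 on this probe, higher in 6 of 9 pairs, and 0.31 on probe 339, higher in 8 of 9 pairs, with an adjusted p of 0.825 for both. Over these times 3.15% of all probes were higher in 8 or more of 9 pairs. The pair differences of the 2 HP probes had a Pearson r of 0.19 over 21 pairs. Averaged over its probes, HP had 0.51 at both 6 h and 16 h, with intervals of 0.02 to 1.01 and 0.01 to 1.00. Neither mean passed the threshold (adjusted p = 0.999 and 0.939 by limma).

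HPR, the haptoglobin-related gene, has 2 probes of its own here. At 6 h, HPR probe 4268 had 0.35, -0.14 and 0.25 in CM, against -0.25, -0.36 and -0.78 in NCM. It was thus higher without overlap, as were 2.08% of all probes. Its change was 0.61 at 6 h (SE 0.24, adjusted p = 0.999) and 0.37 at 16 h. Over 3 h, 6 h and 16 h it was higher in 9 of 9 pairs, which held for 0.441% of all probes. Earlier changes were -0.07 at T0, 0.41 at 15 min, 0.10 at 30 min and 0.45 at 1 h. The mean of 15 min, 30 min and 1 h was 0.32, higher in 7 of 9 pairs. The mean of 3 h, 6 h and 16 h exceeded it by 0.16 (SE 0.20). HPR probe 8006 had 0.47 at 6 h and 0.89 at 16 h (SE 0.47). In that 16 h value the pair of experiment 3 differed by 1.99, against 0.17 and 0.50 in the others. Probe 5551, assigned to HPR and HP together, had 0.31 at 6 h and 0.01 at 16 h. Cross-binding between HP and HPR was not tested.

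HPX, the heme scavenger, had small changes in CM, and none passed the threshold at any time. Its 18 changes before 16 h lay between -0.18 and 0.25, with 0 at an unadjusted p under 0.05 by limma. Of all probe tests at those times, 3.92% were under it. At 16 h, probe 3142 had -0.61, -0.84 and -1.29 in CM, against -0.47, -0.37 and -0.47 in NCM. Here the CM cultures all lay below the NCM cultures, whose SD was 0.06 against 0.34 in CM. The change was -0.48 (SE 0.21, interval -0.92 to -0.03, adjusted p = 0.942), or -0.31 without experiment 3, and 2.76% of all probes were lower in CM without overlap at 16 h.

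The other HPX probes did not share that difference. At 16 h, probe 7370 had -0.39, -0.81 and -0.59 in CM, against -0.86, -0.63 and -0.78 in NCM, a change of 0.16 (SE 0.28, interval -0.43 to 0.76). Probe 7580 had -1.24, -1.39 and -0.94 in CM, against -0.91, -1.27 and -0.92 in NCM, a change of -0.16 (SE 0.21, interval -0.60 to 0.28) that was lower in 3 of 3 pairs, as were 12.6% of all probes. Pearson r between the pair differences of the HPX probes was -0.46, -0.02 and 0.20 over 21 pairs. Averaged over its probes, HPX had -0.16 at 16 h (interval -0.49 to 0.18). The probes differed in direction and the interval of probe 7370 reached 0.76, so this mean sets no firm bound on an increase.

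HPX probe 7370 was low at 6 h in both media. Its log2 levels were -3.22, -1.84 and -1.01 in CM at 6 h, against -2.20, -2.65 and -1.80 in NCM. The median of these 6 arrays was -2.02, and that of the 36 arrays of other times was -0.87, with a range of -1.47 to -0.13. Probes 3142 and 7580 were not low at 6 h, with medians of -0.71 and -0.99 against -0.72 and -1.08 at other times. In the F test over times, 0.0145% of all probes passed in NCM and 0.00723% in CM, and none of the HPX, HP or ORM1 probes did.

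**Figure D2:**
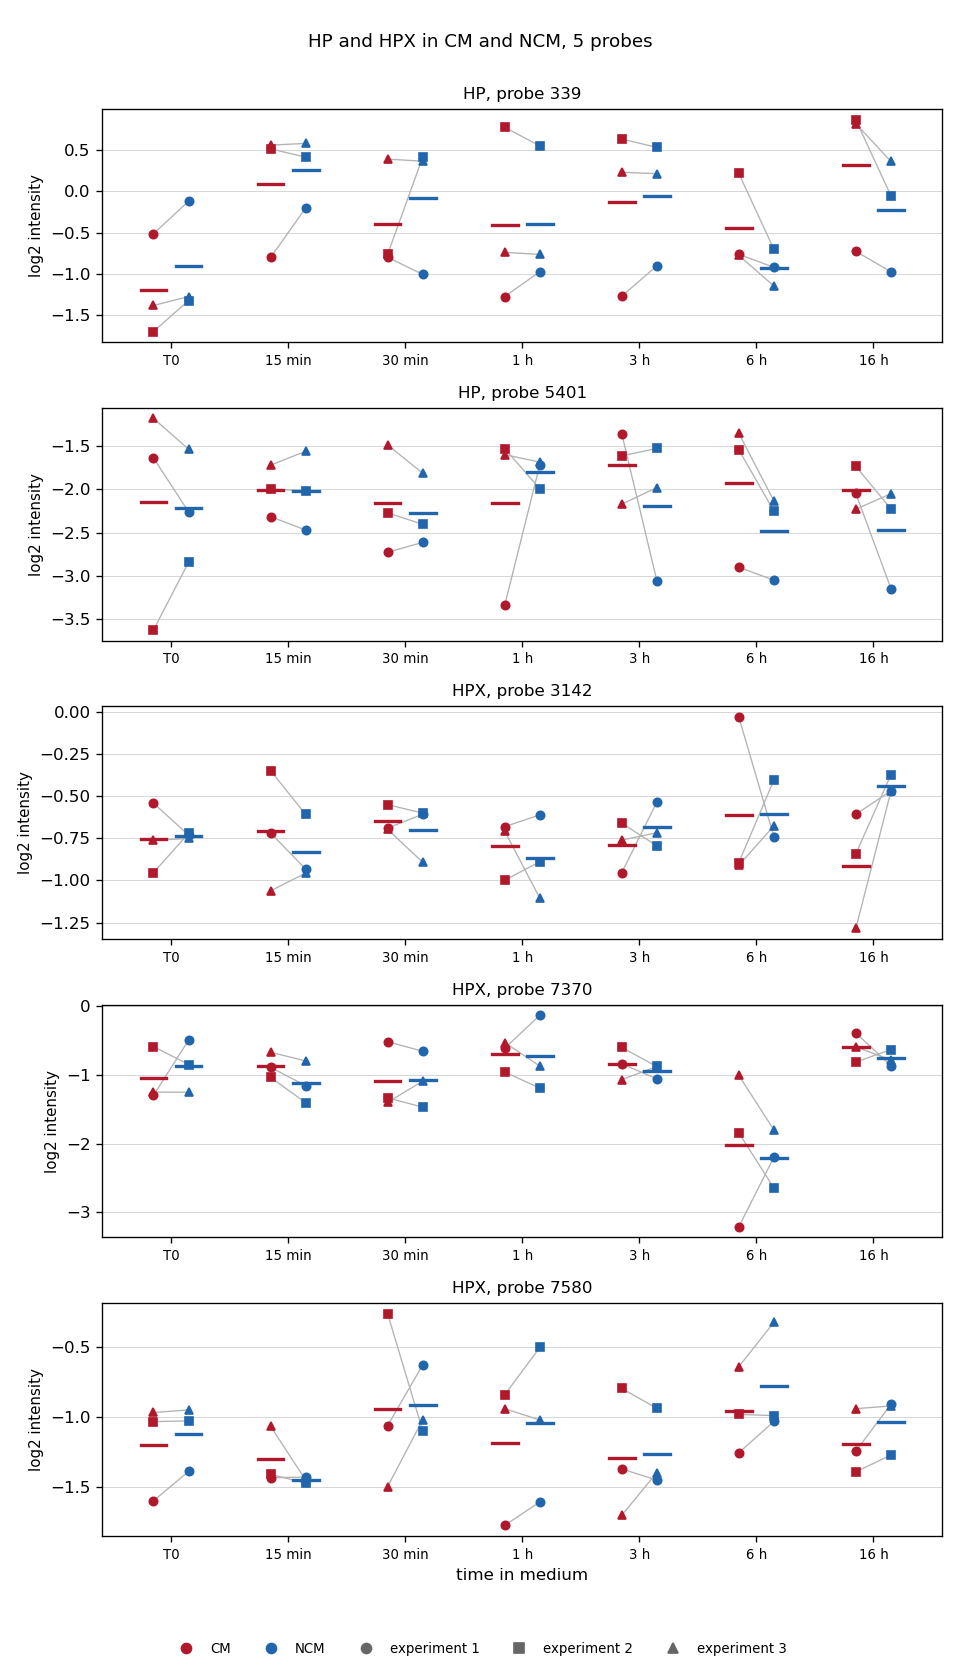
Log2 intensity of the 2 HP and 3 HPX probes on the vertical axis of each panel, by time in medium, with CM in red to the left of NCM in blue. Points are single cultures, marker shape gives the experiment, lines join pairs and bars are means of 3 cultures. HP probe 339 lies above its partner in 3 of 3 pairs at 6 h and 16 h, HPX probe 3142 lies below in 3 of 3 pairs at 16 h, and HPX probe 7370 is low in both media at 6 h.

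Set side by side at 16 h, the mean changes over the probes of a gene were 1.26 for ORM1 (interval 0.87 to 1.64), 0.51 for HP (0.01 to 1.00) and -0.16 for HPX (-0.49 to 0.18). At 6 h they were 0.33 (interval -0.05 to 0.72), 0.51 (0.02 to 1.01) and 0.00 (-0.33 to 0.34). The HP mean passed the threshold at neither time, with an adjusted p by limma of 0.939 at 16 h and 0.999 at 6 h. The interval of ORM1 at 16 h has no part in common with that of HPX, and it overlaps that of HP. The difference between genes was not tested. Over the 21 pairs, the differences of ORM1 probe 2192 had a Pearson r of 0.76 with those of HP probe 339 and -0.41 with those of HPX probe 3142, given as descriptions because the probes share the same arrays.

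**Figure D3:**
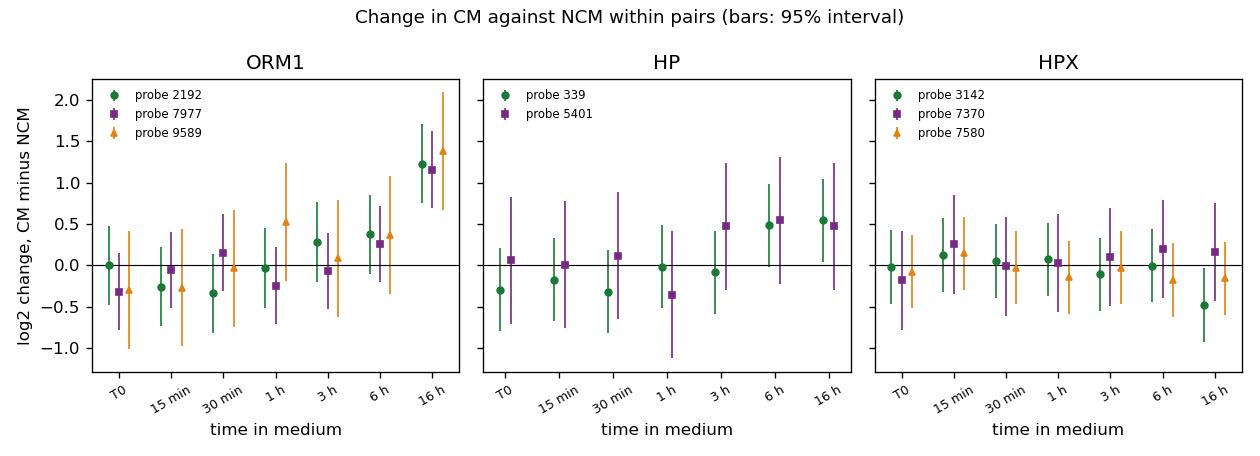
Log2 change, CM minus NCM within pairs, on the vertical axis for every member probe by time in medium, with 1 panel per gene. Points are limma estimates from 3 pairs and bars are 95% intervals. The 3 ORM1 intervals at 16 h start at 0.75, 0.70 and 0.67, the HP points are near 0.5 at 6 h and 16 h, and the HPX points stay between -0.48 and 0.25.

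**Figure D4:**
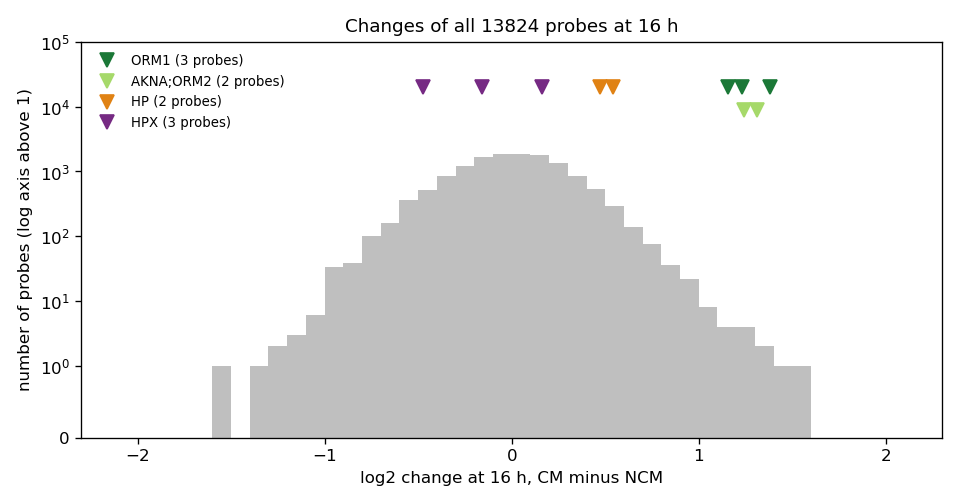
Histogram of the log2 change at 16 h, CM minus NCM, for all 13824 probes, with the number of probes on a log axis above 1. Triangles mark the probes of ORM1, of AKNA with ORM2, of HP and of HPX, and their height has no meaning. The median of all probes is 0.01, and the ORM1 probes lie at 1.16, 1.23 and 1.38.

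Among probes naming 1 gene, the genes whose pair differences were most like those of each member were named by Pearson r over 21 pairs. Probes naming several genes were left out, among them probe 1820 of AKNA and ORM2, with an r of 0.92 to ORM1 probe 2192. For ORM1 probe 2192 they were NDUFB7, a respiratory chain subunit gene (r = 0.80), CUX2 (0.79) and TPM1 (0.78), with changes at 16 h of 1.04, 0.85 and 0.27. For HP probe 339 they were DRAM2 (0.86), GBP1, an interferon-induced GTPase gene (0.85), and SPON2 (0.83), with 0.37, 0.50 and 0.29. For HPX probe 3142 they were POLD4 (0.80), ATP8A1 (0.77) and COL18A1 (0.75), with -0.18, -0.41 and -0.44. None of these 9 passed the threshold at 16 h.

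Of the other acute phase genes that rise in inflammation, 20 of 29 were measured. At 16 h 1 of these was called higher and 0 were called lower, against 0.00723% of all probes called, and 12 were above 0. Their median change was 0.19, against 0.01 over all probes. The gene called was CFB, with 1.47 (adjusted p = 0.0177) and 0.47 and 0.30 on its other probes. ITIH4 had 0.62, with 0.89 and -0.90 on other probes, and FGB, a fibrinogen chain gene, had 0.56, with 0.03 on its other probe. Of the genes that fall in the acute phase, 16 of 17 were measured, 0 were called and 4 were above 0, with a median of -0.05. The values with the smallest p among them were -0.46 for IGF1, -0.31 for AFP, with 0.50 and -0.12 on its other probes, and 0.32 for SERPINA6, the gene of the corticosteroid carrier.

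Among receptors, kinases and transcription factors of the response, 17 of 25 were measured and 0 were called at 16 h, with a median of -0.05. Their changes ran from -0.46 to 1.23 at 1 h, -1.07 to 1.22 at 3 h and -0.33 to 0.73 at 16 h. The median was 0.11 at 1 h and at 3 h, and 0 were called at either time. At 16 h IL1RAP, the accessory chain of the interleukin-1 receptor, had 0.73 (SE 0.22, adjusted p = 0.942). NR3C1, the glucocorticoid receptor gene, had 0.55, and IL1R1 had 0.27, with 0.35 on its other probe. Among genes of heme, hemoglobin and iron handling, 17 of 21 were measured and 0 were called, with a median of 0.00. CD163, which takes up the haptoglobin complex, had 0.47 (adjusted p = 0.942), and LRP1, which takes up the hemopexin complex, had 0.61 (adjusted p = 0.942). Each was higher in 3 of 3 pairs, as were 13.3% of all probes. Both probes were dim, with a mean level above that of 23.8% of all probes for CD163 and 6.28% for LRP1. Among relatives by structure, 13 of 18 were measured and 0 were called, with a median of 0.23. MMP1, a collagenase with hemopexin repeats, had 0.58, HPR had 0.37 and PRG4 had -0.30.

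Markers of the labelled cell and of others were read at 16 h as summed linear intensities. The hepatocyte list had 9 of 10 genes measured, with 17.9 to 21.1 in CM and 20.8 to 22.0 in NCM, and 6 of its genes lay above the 75th percentile of all probes. Monocyte and macrophage genes (4 of 7 measured) had 1.62 to 2.78 in CM and 1.77 to 2.61 in NCM, none above the 75th percentile. Lymphocyte genes (2 of 5 measured) had 0.275 to 0.659 in CM and 0.492 to 0.809 in NCM, and endothelial genes (2 of 3 measured) had 0.640 to 0.904 in CM and 0.690 to 0.955 in NCM. Fibroblast genes (3 of 5) had 1.81 to 3.28 in CM and 1.69 to 2.39 in NCM, and 1 of them, DCN, lay above the 75th percentile. Erythroid genes (4 of 4) had 1.77 to 2.90 in CM and 1.48 to 2.07 in NCM, with a median change of 0.36. None of the lymphocyte, endothelial or erythroid genes lay above the 75th percentile. No defining marker was at 0 because the scale has a lower bound, and the part of these values in the ORM1, HP and HPX results was not tested.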

How the data were processed

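Total RNA of 42 Hep3B cultures, 21 in CM and 21 in NCM, was measured on 1 array each. The authors deposited linear intensity values, 1 per probe and array, with at most 2.12% of an array below 0. The sources used here give no platform, scanner, background correction or scaling method. The intensities were quantile normalized on the linear scale because array medians had an SD of 0.31 on the log2 scale. Before taking log2, the 1st percentile over all arrays (0.0812) was used as a lower bound. This bound touched 1 of 336 member values.

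Tests used limma 3.58.1 in R 4.3.3, and plots used Python 3.11.15 with matplotlib 3.10.9. All 42 arrays entered 1 linear model holding the 21 pairs as a block and the effect of CM at every time (14 residual and 6.26 prior degrees of freedom). Two-sided p-values were adjusted by Benjamini-Hochberg over 13824 probes. F tests over times used the 21 arrays of 1 medium with no block. The labels give the pairs. As a check, each array's deviation from its group mean was correlated with that of its partner, which gave 0.308 to 0.754, above 0.1 in 21 of 21 pairs. Of 7336 probes that name 1 gene, 7322 matched a RefSeq table of GRCh38.p14 by Entrez ID, 576 probes name several genes and 5912 name none.

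The members, gene lists and tests were chosen with earlier results of these data known. Named genes were the members, list genes past the threshold, the 3 smallest p of each list at 16 h on the brightest probe of a gene, and the 3 genes most alike in pair differences. Probes naming ORM2 or HPR, and the combination of the gene mean with other settings, were added after the data were seen. The alternatives were no block, the deposited scaling, median centring, a filter on dim probes, a higher lower bound, a fit of each time by itself, limma with trend and robust options, neighbour centring, gene means and each replicate left out. Neighbour centring assumes that probes were numbered along grids of 16 by 24 and subtracts the mean deviation of up to 8 neighbouring probes. The steps were tested on simulated data.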

Additional observations from a re-analysis of the deposited data

Results flagged for a closer look

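Changes of opposite direction at 2 times, in all 3 pairs of each, were found for 2 probes. The share of all probes with such a turn was not counted, so this is not a trait of these genes. At single times, 13.3% of all probes were higher in 3 of 3 pairs at 6 h and 13.3% at 16 h. In the other direction, 9.19% were lower in 3 of 3 pairs at T0 and 12.8% at 1 h. ORM1 probe 7977 was higher in CM in 3 of 3 pairs at 16 h, with a change of 1.16, and lower in 3 of 3 pairs at 1 h, with -0.24, a difference of 1.40 that was not tested. HP probe 339 was higher in CM in 3 of 3 pairs at 6 h, with 0.48, and lower in 3 of 3 pairs at T0, with -0.29. This difference was 0.78 (SE 0.34, adjusted p = 1.00 by limma). At 16 h the same HP probe was higher in 3 of 3 pairs, with 0.54, and its difference from T0 was 0.83 (SE 0.34, adjusted p = 0.986 by limma). Neither difference passed the threshold.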

How the results depend on the processing

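ORM1 at 16 h kept its direction under every alternative run, with a change of 1.06 to 1.35 on probe 2192, 1.04 to 1.26 on probe 7977 and 1.21 to 1.81 on probe 9589. On these probes the adjusted p ran over the alternatives from 0.0241 on probe 2192, 0.0591 on probe 7977 and 0.0247 on probe 9589 to 1.00, the last without the replicate block, and without single replicates from 0.466 to 0.999. Neighbour centring brought ORM1 probes 2192 (1.25, adjusted p = 0.0241) and 9589 (1.81, adjusted p = 0.0247) past the threshold. The mean of the ORM1 probes (1.26) passed it as well, at 0.0159. That mean was 1.26 without the replicate block, 1.24 with the deposited scaling and 1.33 with median centring, all short of the threshold, and 1.15 to 1.39 without single replicates. The replicate block changed no other call on the members. The cause of the lost calls was not tested. Signal over background is not recorded, so how far dim probes such as HP probe 5401 are limited was not tested.

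The number of probes called at 16 h, 1 in the reported fit, was 0 without the replicate block, with the deposited scaling, with median centring, with each time fitted alone and in all fits without 1 replicate. It was 2 without the dimmest 25% of probes or with the lower bound at the 10th percentile, 3 with an intensity trend and robust spread and 5 with neighbour centring. The mean of 3 h, 6 h and 16 h had 6 probes called, against 0 without the replicate block and without any 1 replicate, 1 with the deposited scaling, 1 with median centring and 10 with the trend and robust spread. At 3 h 1 probe was called without the dimmest 25%, with the lower bound at the 10th percentile and with the trend and robust spread, and at 1 h 0 to 1 without single replicates. Median centring moved the median change of all probes to -0.11 at 30 min and 3 h and to 0.12 at 6 h.

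The changes below turned their sign, all of them values that did not pass the threshold, and the cause was not tested. With the lower bound at the 10th percentile, HP had -0.046 at 15 min and 0.064 at 1 h on probe 5401. With median centring, ORM1 had 0.13 at 1 h on probe 2192. With median centring, HP had 0.12 at 1 h on probe 339, and -0.086 at T0, -0.27 at 15 min and -0.27 at 30 min on probe 5401. With neighbour centring, ORM1 had -0.15 at T0 on probe 2192, and -0.26 at 30 min and 0.026 at 3 h on probe 7977, and 0.30 at T0 on probe 9589. With neighbour centring, HP had 0.021 at 3 h on probe 339, and -0.067 at T0 on probe 5401. With neighbour centring, HPX had 0.072 at T0, -0.021 at 15 min and -0.053 at 1 h on probe 3142, and 0.12 at 30 min and -0.030 at 1 h on probe 7370, and 0.086 at 16 h on probe 7580. With the deposited scaling, ORM1 had -0.020 at T0 and 0.042 at 1 h on probe 2192. With the deposited scaling, HP had 0.027 at 1 h and 0.030 at 3 h on probe 339, and -0.20 at T0, -0.24 at 15 min and -0.15 at 30 min on probe 5401. With the deposited scaling, HPX had -0.0020 at 1 h and 0.055 at 3 h on probe 3142, and 0.0063 at 30 min on probe 7370. Without single replicates, the lowest and highest changes were as follows. ORM1 probe 2192 ran -0.16 to 0.14 at T0, -0.59 to 0.078 at 30 min and -0.17 to 0.080 at 1 h. ORM1 probe 7977 ran -0.46 to 0.27 at 15 min. ORM1 probe 9589 ran -0.57 to 0.062 at T0, -0.45 to 0.68 at 30 min and -0.12 to 0.27 at 3 h. HP probe 339 ran -0.31 to 0.040 at 15 min, -0.58 to 0.12 at 30 min, -0.14 to 0.13 at 1 h and -0.17 to 0.059 at 3 h. HP probe 5401 ran -0.21 to 0.49 at T0, -0.069 to 0.088 at 15 min, -0.77 to 0.27 at 1 h and -0.14 to 0.80 at 3 h. HPX probe 3142 ran -0.12 to 0.089 at T0, -0.016 to 0.12 at 30 min, -0.089 to 0.16 at 1 h, -0.23 to 0.045 at 3 h and -0.36 to 0.24 at 6 h. HPX probe 7370 ran -0.40 to 0.13 at T0, -0.088 to 0.14 at 30 min, -0.12 to 0.29 at 1 h and -0.11 to 0.80 at 6 h. HPX probe 7580 ran -0.46 to 0.20 at 30 min and -0.11 to 0.11 at 3 h.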
